A study of Mus musculus with 2 samples.

Results

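Interferon-stimulated genes are the genes that a cell switches on after an interferon has bound its receptor. The group described here held 39 of them, chosen by name from a list set for this purpose. Earlier results of these data were known when the members were chosen. Every member had at least 1 probe on the array, out of 30193 genes named there in all. Skin RNA was compared between wild-type newborns, Pnpla1+/+, and newborns homozygous for a disrupted Pnpla1 allele, Pnpla1-/-, all on the C57BL/6N background and at postnatal day 0. Equal amounts of total RNA from 6 animals were pooled for each genotype and hybridized with 1 dye to 1 Agilent oligonucleotide array, so that each genotype is 1 sample. The knockout was global rather than restricted to keratinocytes, came from a knockout-first allele whose reporter and selection cassettes had been removed, and was compared with littermates; the newborns lack a working skin permeability barrier, and no agent was given. With 1 array per genotype there is no replicate, no test was possible, and every difference below describes this pair of pools.

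Type I and type III interferons act through the kinases Jak1 and Tyk2 and assemble a complex, with Stat2 and Irf9 among its parts, that binds the interferon-stimulated response element (ISRE) in promoters. Interferon-gamma acts through Jak1 and Jak2 on promoters that hold the interferon-gamma activated sequence (GAS), and Irf1, itself induced this way, also binds ISRE-like sequences. The induced proteins detect viral nucleic acids, degrade or trap viral RNA, block virus entry and release, attack the membranes around intracellular microbes and raise the presentation of peptides to T cells, and in skin such genes are known from viral infection, wounding, psoriasis and lupus.

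The promoters of the members were read for the ISRE and GAS sequences. Windows from 250 bases before to 50 after the transcription start (RefSeq, GRCm38.p6) were at hand for 31 of the 39 members. They were searched for the ISRE core, which is GAAA, any 2 bases and GAAA again, and for GAS, TTCNNNGAA, where N is any base, on both strands. The ISRE core was found for 15 of the 31 members (48.4%), against 1079 of 27025 genes in the whole promoter table (3.99%), and GAS for 10 of the 31 (32.3%), against 9.55% of all genes. These stretches are a selection of those with an ISRE core. Each is printed from 20 bases before the first match to 20 after the last or to the base before the start site. They are given in the direction of transcription with the matching bases in capitals. The last line shows the GAS match of Irf1 in the same way.
Isg15 (chr4:156200855-156200916, minus strand): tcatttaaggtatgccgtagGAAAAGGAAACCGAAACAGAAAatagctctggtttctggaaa
Ifit1 (chr19:34640765-34640833, plus strand): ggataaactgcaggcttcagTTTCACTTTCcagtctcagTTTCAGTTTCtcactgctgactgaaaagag
Ifit3 (chr19:34583353-34583436, plus strand): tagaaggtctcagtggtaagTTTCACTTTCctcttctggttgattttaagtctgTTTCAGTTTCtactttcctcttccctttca
Oas1a (chr5:120907526-120907565, minus strand): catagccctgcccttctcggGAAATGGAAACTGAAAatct
Bst2 (chr8:71537567-71537622, minus strand): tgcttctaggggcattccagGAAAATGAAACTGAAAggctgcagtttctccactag
Gbp2 (chr3:142620584-142620633, plus strand): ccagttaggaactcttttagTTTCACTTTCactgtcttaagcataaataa
Gbp3 (chr3:142559979-142560034, plus strand): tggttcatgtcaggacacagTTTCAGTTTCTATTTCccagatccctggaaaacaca
Igtp (chr11:58199502-58199551, plus strand): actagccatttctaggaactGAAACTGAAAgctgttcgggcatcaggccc
Irgm1 (chr11:48871421-48871470, minus strand): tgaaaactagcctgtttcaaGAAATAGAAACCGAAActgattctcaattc
Irf1 (chr11:53769904-53769952, plus strand): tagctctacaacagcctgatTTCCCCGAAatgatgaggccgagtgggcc

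Of the 24 ISRE matches, 18 began within 150 bases before the start site and 4 lay after it. Isg15 held 3 matches, each sharing bases with the next, and Ifit1 and Ifit3 each held a separate pair. In Oas1a, Bst2, Gbp3 and Irgm1 a pair of matches shared bases, and in Bst2 the first of them also shared bases with a GAS match. Bst2, Ifitm3, Igtp and Oas1a held both motifs, and 10 of the 31 members held neither. A match is a description of the letters and was not shown here to be bound.

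**Figure D1:**
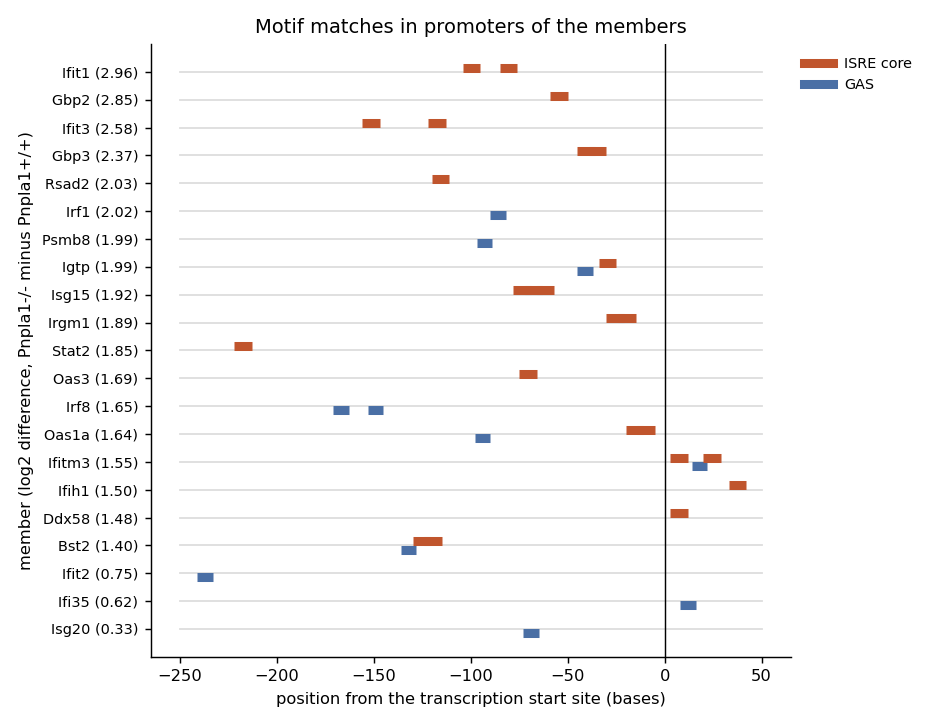
Positions of ISRE core matches (orange) and GAS matches (blue) in the promoter windows of the 21 members that hold either, from 250 bases before to 50 after the transcription start at 0, with genes ordered by their log2 difference between the pools (in brackets). The ISRE matches crowd the 150 bases before the start, and the 3 members at the bottom, Ifit2, Ifi35 and Isg20, hold a GAS match and no ISRE core.

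Pnpla1, the deleted gene, was read first as a check of the labels. Signals are given here as the background-subtracted intensity in percent of the 75th percentile of the same array, which was 2108 intensity units in the Pnpla1+/+ and 1734 in the Pnpla1-/- pool, so that 100% is a fairly bright spot and the scale is the same in both pools. Differences are log2 of the Pnpla1-/- over the Pnpla1+/+ value, in which 1 is 2-fold, and the error beside a difference is 1 SD from the scanner's error model for the spots, which leaves out the variation between mice. The Pnpla1 probe (chr17:29026908-29026967, mm9) read 27.4% in the Pnpla1+/+ and 6.55% in the Pnpla1-/- pool, a difference of -2.07 ± 0.22. Its direction goes with the labels, the signal remained above background, and whether the probe lies in the removed part of the gene is not given in the sources used here.

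The labelled tissue was skin. All 6 keratinocyte, all 6 fibroblast and all 5 skeletal muscle marker genes were well above background in both pools. The samples therefore held RNA of dermis and muscle as well as of epidermis, although the series description also speaks of epidermis.

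All 39 members were well above background in both pools, and all 39 had a higher scaled signal in the Pnpla1-/- pool. Of these, 36 (92.3%) were at least 2-fold higher and none was at least 2-fold lower, whereas of 22400 genes on the array that gave a difference 6.7% were higher by 2-fold or more and 3.04% lower by as much. The balance over all genes depended on the scaling, with 1501 higher and 682 lower as reported, 999 and 1425 with no scaling and 830 and 2150 when centred on spike-in RNA, where 35 and 34 members were at least 2-fold higher. At 4-fold or more stood 15 members, against 1.85% of all genes. The median difference over the members was 1.92, which is 3.78-fold, beside 0.00 over all genes, whose interquartile range ran from -0.26 to 0.32. The members lay on 15 chromosomes and none on X or Y. In RNA of whole skin, a change in the number of cells of a type and a change in the RNA per cell cannot be told apart.

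The lowest 3 were Isg20, at 0.33 ± 0.20, Ifi35, at 0.62 ± 0.20, and Ifit2, at 0.75 ± 0.21, and the next member up, just past 2-fold, was Irf9, at 1.22 ± 0.20. The highest were Ifit1, at 2.96 ± 0.22, Gbp2, at 2.85 ± 0.20, Ifi47, at 2.77 ± 0.20, and Mx1, at 2.76 ± 0.21, whose errors overlap. In 38 of 39 members the difference was more than 2 of these SDs above 0, the exception being Isg20.

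**Figure D2:**
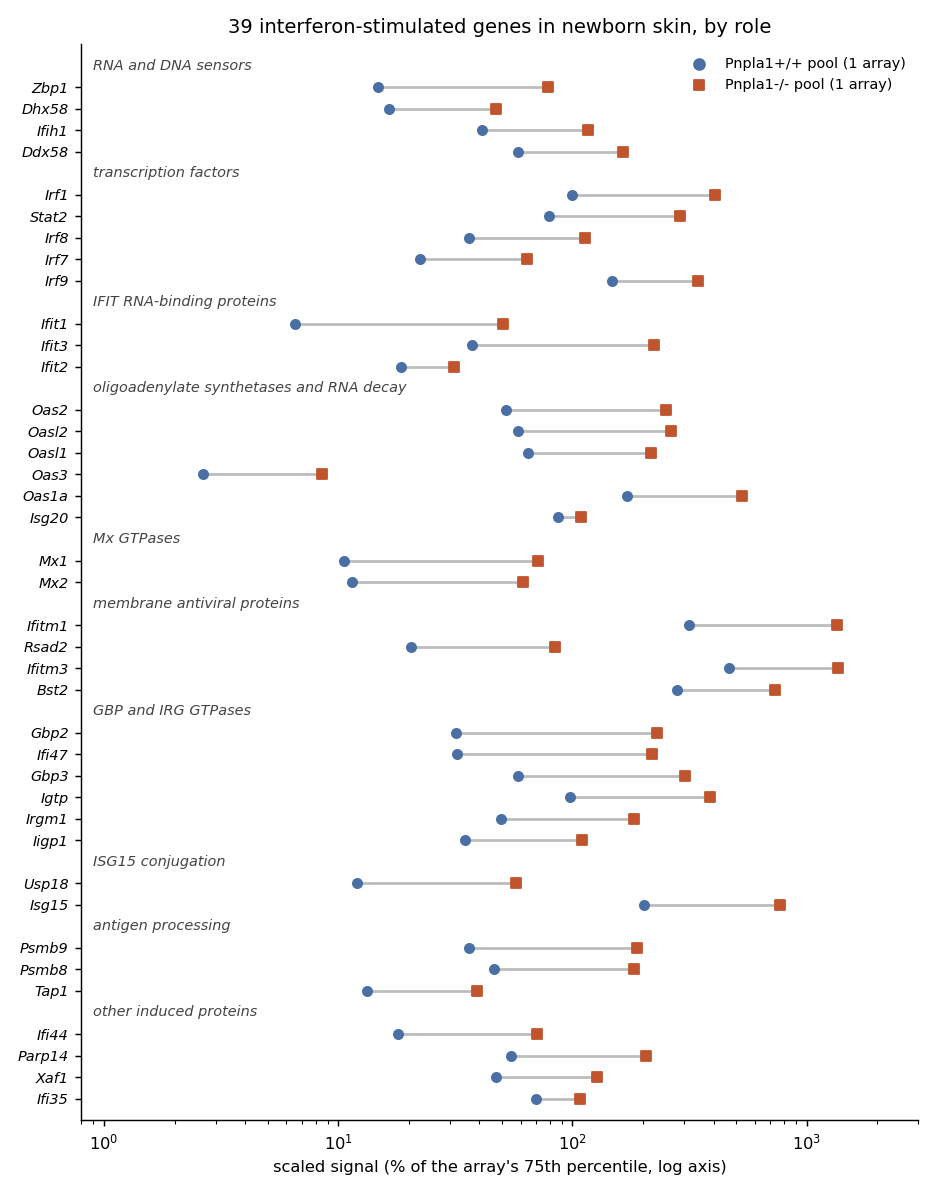
Scaled signal of each of the 39 members in percent of the array's 75th percentile (log axis), with the Pnpla1+/+ pool as blue circles and the Pnpla1-/- pool as orange squares, 1 array each, grouped by role. In every row the orange square lies to the right, and the gap is smallest for Isg20 (86.4% and 109%).

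The sensors of foreign or misplaced nucleic acid were all at least 2-fold higher. Ddx58, which encodes RIG-I and recognises short double-stranded RNA with a free end, read 58.5% in the Pnpla1+/+ and 164% in the Pnpla1-/- pool. Ifih1, encoding MDA5, the sensor of long double-stranded RNA, read 41.3% and 116%, and Dhx58, encoding the helicase LGP2 that modulates both, read 16.4% and 46.9%. These 3 helicase genes lay close together, with differences from 1.48 to 1.51. Zbp1, a sensor of Z-form nucleic acid that can start necroptosis, read 14.8% and 78.7%, a difference of 2.41 ± 0.21. Its dimmer probe gave 3.21, so that both probes put Zbp1 above the 3 helicase genes.

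Among the transcription factors, the parts of the type I interferon complex were higher in unequal measure. Stat2 read 79.5% and 287%, a difference of 1.85 ± 0.20, and Irf9, its DNA-binding partner, read 147% and 343%, the smallest difference of the group. Irf1, which interferon-gamma induces and which turns on antigen presentation genes, read 99.6% and 404%, a difference of 2.02 ± 0.20. Irf7, the amplifier of interferon-alpha production, read 22.4% and 64.2%, with a difference of 1.52 ± 0.20. Irf8, an interferon-gamma-induced factor that is also needed for the development of dendritic cells and monocytes, read 36.1% and 114%. Leukocytes also express Irf8 without interferon, and its difference was 1.65 ± 0.20.

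The Ifit genes, which encode proteins that bind viral RNA lacking the host's cap methylation and sit side by side on chromosome 19, split. Ifit1 read 6.53% in the Pnpla1+/+ and 50.6% in the Pnpla1-/- pool, the largest difference of all members as reported. With normexp background correction Ifit1 was at 2.35, below Gbp2 at 2.76. Ifit3 read 37.3% and 224%, a difference of 2.58 ± 0.20. Ifit2, whose probe (chr19:34650244-34650303, mm9) lies 12.9 kb from that of Ifit3 and 73.6 kb from that of Ifit1, read 18.5% and 31.2%. Its 1.69-fold difference was well below the 6.00-fold of Ifit3 and the 7.76-fold of Ifit1, beyond their errors. Ifit3b, a near-identical copy of Ifit3 that hybridization cannot fully keep apart, read 7.06% and 41.3%, a difference of 2.55.

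The oligoadenylate synthetases make the second messenger that activates the ribonuclease RNase L when they meet double-stranded RNA. Oas2 read 52.1% and 251%, and Oasl2, an oligoadenylate synthetase-like protein, 58.7% and 264%, and these were the members of the group at 4-fold or more. Oasl1, which in mice restrains the translation of Irf7, read 64.7% and 216%. Oas1a read 170% and 529%, and its second probe gave a difference of 2.01 beside 1.64 for the brighter one. Oas3 was dim, at 2.65% and 8.53%, and its difference of 1.69 ± 0.26 has the largest error of the members. The exonuclease gene Isg20 read 86.4% and 109%, and its second probe, at 0.40, was as low as the first, at 0.33.

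Both Mx genes, which encode dynamin-like GTPases that trap viral nucleocapsids, were more than 4-fold higher. Mx1 read 10.6% and 71.4%, and Mx2 11.4% and 61.7%, a difference of 2.44 ± 0.21. C57BL/6 and most other inbred laboratory strains carry a defective Mx1 allele, so that its RNA need not give a working protein. Whether the RNA of either Mx gene gave a working protein was not measured.

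The membrane antiviral genes act at the surface of cells and virions or on lipid bodies, and all 4 were at least 2-fold higher. With spike-in centring 3 were, and Bst2 was at 0.97. Ifitm1 read 315% and 1341%, and both of its probes gave 2.09. The dimmer probe is placed on chromosome 8 (chr8:13896764-13896823, mm9) and the brighter on chromosome 7 (chr7:148155659-148155718). Whether both read the same gene was not tested. Ifitm3, whose product blocks the fusion of viruses in endosomes, read 466% and 1360%. Ifitm3 was printed as 10 spots on each array, which gave single-spot values from 439% to 499% in the Pnpla1+/+ and from 1261% to 1458% in the Pnpla1-/- pool. The spots of the pools did not overlap, and the spot-by-spot difference had an SD of 0.05 around 1.55. These spots are technical repeats on the same pooled RNA, so their spread leaves out the variation between mice. Bst2, encoding tetherin, which holds budding virions on the cell surface, read 278% and 732%, and Rsad2, encoding viperin, 20.5% and 83.8%.

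The guanylate-binding and immunity-related GTPases, some of which coat and break the vacuoles of intracellular microbes, were higher throughout, with a group median of 2.18. Gbp2 read 31.8% and 229%, and its neighbour Gbp3 58.4% and 303%. Among the immunity-related GTPases, Ifi47 read 32.1% and 218%, Irgm1 49.3% and 183%, and Iigp1 34.9% and 110%. The dimmer probe of Iigp1, at 4.87% and 44.7%, gave 3.20 beside 1.65, the widest gap between measured probes of a member, so that the size of its difference is uncertain while its direction is the same. Igtp, with 10 spots per array, read 97.2% and 386%. Its spots, again technical repeats on the same pooled RNA, ran from 88.6% to 103% and from 349% to 412%, without overlap.

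Isg15, the ubiquitin-like modifier that gives the family its name, read 203% in the Pnpla1+/+ and 766% in the Pnpla1-/- pool. Its probes gave 1.92 and 1.89 although their intensities were far apart. Usp18, the protease that removes Isg15 from proteins and also blocks the type I interferon receptor, read 12.1% and 57.6%, a difference of 2.25 ± 0.21. The modifier and its brake were therefore higher together.

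The antigen processing genes were those of the immunoproteasome and the peptide transporter. Psmb8 read 46.1% and 183%, and Psmb9 36.2% and 189%; both replace subunits of the standard proteasome. Tap1, a chain of the pump that carries peptides into the endoplasmic reticulum, read 13.3% and 38.9% over 10 spots, with spot differences from 1.45 to 1.64. These genes lie in the major histocompatibility complex on chromosome 17, 5.29 to 5.31 Mb from the Pnpla1 probe. Without these 3 genes, 33 of 36 members were at least 2-fold higher and the median was 1.90, a choice made after seeing the data. The part of their linkage to the targeted gene in their own differences was not tested.

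Of the remaining members, Ifi44 read 18.0% and 70.2%, and Parp14, an ADP-ribosyltransferase, 54.7% and 207%, both with differences above 1.9. Xaf1, a promoter of apoptosis, read 47.1% and 127%. Ifi35, which partners with Nmi, read 70.1% and 107%, the lowest of these.

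**Figure D3:**
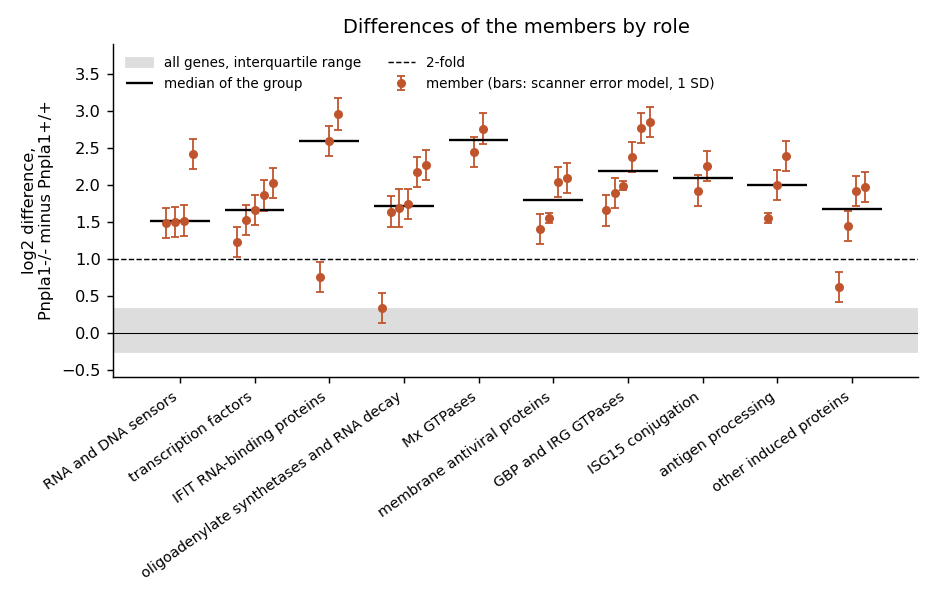
Log2 difference of each member, Pnpla1-/- minus Pnpla1+/+, by role, with bars of 1 SD from the scanner's error model, a black line at each group's median, a dashed line at 2-fold and a grey band over the interquartile range of all genes (-0.26 to 0.32). Every group median is above 2-fold, lowest for the sensors and highest, at 2.60, for the Mx genes, and 3 members lie below the dashed line.

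The members had 51 probes, 12 of which were second probes not used for the values above. Of these 12, 9 were well above background in both pools and 8 were at least 2-fold higher, the exception being that of Isg20. Among the 8, the second Ifitm1 probe is placed on chromosome 8, while the first lies on chromosome 7. The second probes of Ifih1 and Psmb9 were above background in the Pnpla1-/- pool only, which gives bounds of 0.82 and 1.20, and the second Irf1 probe was below background in both.

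Members with an ISRE core in the promoter were all at least 2-fold higher, 15 of 15, with a median of 1.89. Of the 16 members whose window held none, 13 were at least 2-fold higher and the median was 1.70. The 8 members without a window in the table were all at least 2-fold higher, with a median of 2.26. For GAS the medians were 1.59 with and 1.92 without a match. The 3 members under 2-fold had no ISRE core, and each of them held a GAS match, as did 7 members above 2-fold. Of the interferon-induced genes outside the group, described further on, 19 of the 49 with a promoter in the table held the core, or 38.8%, and 5 held GAS, or 10.2%.

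Of 21 interferon genes listed, 17 were on the array under a recognised name, 9 were well above background in both pools, and 13 gave a difference or a bound, with a median of 0.38. Ifnb1, Ifne, Ifna4 and Ifna16 were below background in both pools. Ifng, the interferon of T and natural killer cells, was above background in the Pnpla1-/- pool only, at 2.55% against 0.81%, which is at least 2.24-fold higher when set against the lowest signal above background on the other array, a log2 bound of 1.17 that became 0.74 with spike-in centring. Ifnk, an interferon of keratinocytes, was above background in the Pnpla1+/+ pool only, at 3.73% against 1.72%, which is at least 2.17-fold lower. Ifna1 read 3.97% and 9.92% and Ifna11 2.89% and 1.44%, but the interferon-alpha genes are so alike in sequence that their probes may not be specific. Ligand differences thus lay on both sides of 0. With normexp background correction, none of the 12 ligands that could be compared was at least 2-fold higher or lower.

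The receptors and kinases were higher by less than 2-fold in every case. All 9 genes lay between 0.26 and 0.81, with a median of 0.47. Centred on the spike-in RNA the median was 0.04, and Ifnar1, Ifnar2, Ifnlr1 and Tyk2 turned negative, as did other genes this near to 0. Ifnar1 and Ifnar2, the chains of the type I receptor, differed by 0.38 and 0.26, and Ifngr1, the ligand-binding chain of the interferon-gamma receptor, read 346% and 607%, a difference of 0.81 ± 0.20. Jak1, Jak2 and Tyk2 differed by 0.51, 0.53 and 0.38.

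Among 17 genes that sense nucleic acid upstream of interferon or relay its signal, 5 were at least 2-fold higher and none lower. Over all genes, 6.7% were at least 2-fold higher. Tmem173, which encodes STING, read 109% and 288%, a difference of 1.41, and Mb21d1, which encodes the enzyme cGAS upstream of STING, read 33.6% and 32.4%. Aim2 differed by 1.46, Irf5 by 1.08 and the adaptor Myd88, over 10 spots, by 1.06, while Tlr8 had a bound of 1.08. The count of 5 became 2 with no scaling and 1, Aim2, with spike-in centring. Mavs, the adaptor of RIG-I and MDA5, differed by 0.30, and Irf3, the factor that starts interferon-beta transcription, by -0.01. Ddx58 and Ifih1, which signal through Mavs, were 2.80 and 2.82-fold higher.

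Of 10 genes that restrain interferon signalling, 3 were at least 2-fold higher, against 6.7% of all genes. Socs3, an inhibitor of Jak kinases, read 298% and 771%, Trex1, which degrades cytosolic DNA, 270% and 665%, and Samhd1, which depletes deoxynucleotides, 190% and 432%. With no scaling 2 of the 10 were at least 2-fold higher, and with spike-in centring 0. Socs1, the main brake on the interferon-gamma receptor, read 52.4% and 86.4%, a difference of 0.72.

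Of 66 interferon-induced genes outside the 39 that could be compared, 42 (63.6%) were at least 2-fold higher and 24 differed by less than 2-fold. Over all genes, 6.7% were at least 2-fold higher. Among 38 further type I interferon-induced genes that could be compared, 20 were at least 2-fold higher and none lower, with a median of 1.11. Ifit3b and Slfn2, at 2.55 and 2.46, led them, and Ifi203, Slfn8 and Phf11d followed at 2.29, 2.14 and 1.83, while Slfn1 had a bound of 2.46. Of 28 interferon-gamma-induced and antigen presentation genes, 22 were at least 2-fold higher and none lower, with a median of 1.69. Among the higher ones, H2-Aa, H2-Ab1, H2-Eb1, H2-DMa, H2-K1, H2-D1, Tap2 and Tapbp lie on chromosome 17, as does Pnpla1. The part of linkage to the targeted gene in their differences was not tested. Cxcl9, a chemokine for T cells, read 3.35% and 42.9%, its relative Cxcl10 36.5% and 456%, and Cd274, which encodes the checkpoint ligand PD-L1, 9.33% and 98.4%. These differences of 3.68, 3.64 and 3.40 exceed that of any of the 39 members. The class II genes H2-Eb1 and Cd74 differed by 2.56 and 2.46, and Gbp8 had a bound of 2.83. Whether the lists differ from one another was not tested.

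**Figure D4:**
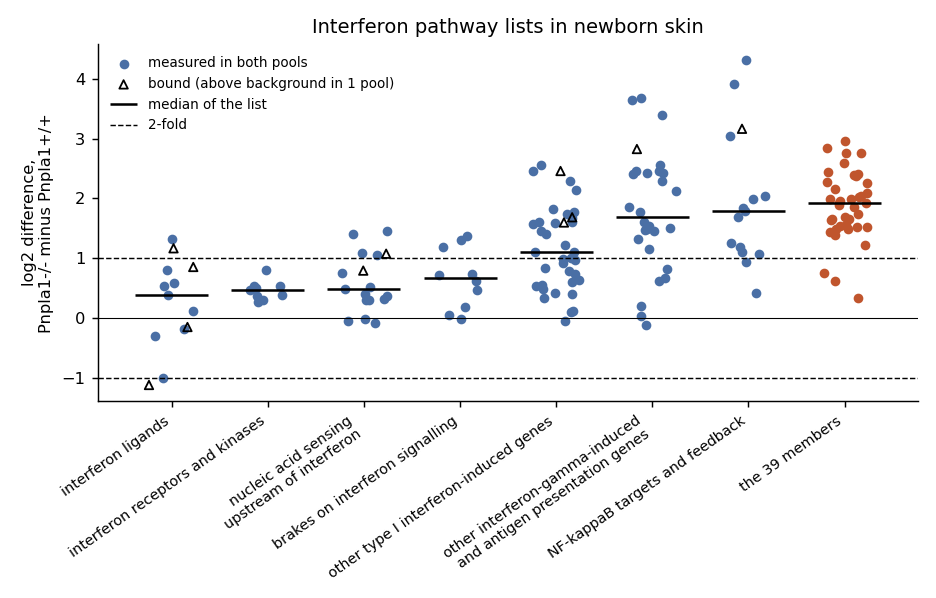
Log2 difference of each gene in 7 pathway lists and in the 39 members (orange), with triangles for bounds, black lines at list medians and dashed lines at 2-fold in either direction. The receptors all sit between 0.26 and 0.81, the ligands spread around 0 from -1.12 to 1.32, and the interferon-gamma list reaches 3.68.

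Marker genes of leukocytes were read in the same pools, list by list, beside 6.7% of all genes at least 2-fold higher. Of 6 pan-leukocyte genes, 5 were at least 2-fold higher, with a median of 1.26, and 2, Cd52 and Ptprc, with no scaling or with spike-in centring. Their summed scaled signal was 610% in the Pnpla1+/+ and 1675% in the Pnpla1-/- pool, Coro1a had the brightest probe, and Ptprc, which encodes CD45, read 11.0% and 31.3%. Of 7 macrophage genes, 2 were at least 2-fold higher, Adgre1 and Lyz2, of which Lyz2 alone remained so with no scaling or spike-in centring, the sum was 1430% and 2492%, and Csf1r had the brightest probe. Among the neutrophil genes, Mpo read 1.53% and 31.2%, and Cxcr2 was above background in the Pnpla1-/- pool only, with a bound of 5.90. The other 4 neutrophil genes lay between -0.03 and 0.42 by their brightest probes, the list's sum, mostly the bright Csf3r probe, was 4903% and 5132%, and the dimmer Itgam probes gave 1.14 and 2.84. Of 4 comparable dendritic cell genes, Itgax and Clec10a were at least 2-fold higher, the sum of the list was 172% and 456%, Clec10a had its brightest probe, and Cd207, the Langerhans cell marker langerin, was below background in both pools.

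Of the 5 T cell genes, the 4 measured in both pools differed by less than 2-fold, Cd3d by -0.46, Cd3g by -0.40, Cd3e by 0.13 and Cd4 by 0.40. The dimmer Cd4 probe, over 7 spots, gave -0.65. Cd8a was above background in the Pnpla1-/- pool only, with a bound of 0.74, the sum of the list was 135% and 165%, and Cd4 had the brightest probe. Of the natural killer cell genes, Ncr1, Klrb1c and Eomes were below background in both pools, Gzma read 7.62% and 47.9%, a difference of 2.65, and the sum was 23.4% and 65.4%, with Prf1 the brightest in the Pnpla1+/+ and Gzma in the Pnpla1-/- pool. Prf1 differed by 0.12, so that Gzma carried most of the gap between the sums. Of the B cell genes, Ms4a1 was below background in both, Cd79b differed by 1.35, was also the brightest, and the sum was 20.9% and 43.6%. Of 4 plasmacytoid dendritic cell genes, 1, Ccr9, was at least 2-fold higher, and the sum, mostly the bright Siglech probe, was 5737% and 6704%. The other Siglech probes were dim, at 1.99% and 2.34% in the Pnpla1+/+ pool, and gave 0.56 and -0.09.

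Genes of the resident cell types were read in the same way. The endothelial sum was 421% and 533%, the fibroblast sum 34072% and 32279% and the skeletal muscle sum 21796% and 25028%, with none of their 16 genes at 2-fold, and with Kdr, Col1a2 and Myh8 the brightest. The keratinocyte sum was 50836% and 57281%, with Krt10 the brightest and Krt14 alone at 2-fold or more, at 1.35. With spike-in centring Krt14, Clec10a, Ccr9 and Cd79b also lay under 2-fold. The part that leukocyte RNA, or any other change in cell types, had in the differences of the 39 members was not tested. Sex-linked genes differed as well, with Xist at 1.12 and the Y-linked Ddx3y at -2.19. No member lies on a sex chromosome, and the part of the sex of the pups was not tested.

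**Figure D5:**
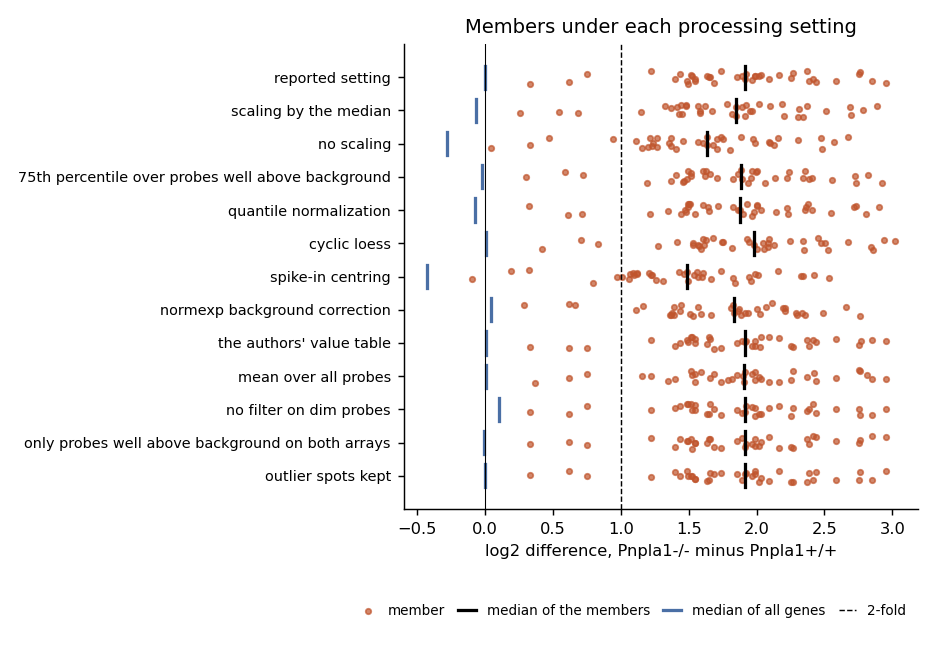
Log2 differences of the 39 members (orange points) under the reported setting and 12 alternatives, with the median of the members in black, the median of all genes in blue and 2-fold dashed. The median of the members stays between 1.49 and 1.98, and that of all genes lies between -0.43, under spike-in centring, and 0.10, with no filter on dim probes.

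Centring on the spike-in RNA gave the lowest median over the members, with 34 members at least 2-fold higher and Isg20 at -0.10. That centring shifts every gene alike. The distance of the members' median from that of all genes was 1.91 as reported, 1.79 with normexp background correction and 1.81 with no filter on dim probes.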

How the data were processed

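Total RNA of newborn mouse skin was labelled with Cy3 and hybridized to Agilent 4x44K v2 mouse arrays by the authors, 1 array for each genotype, both on the same slide. The authors processed the images with Agilent Feature Extraction 11.5.1.1 (submitters' processing notes) and deposited, per spot, a linear background-subtracted and detrended intensity, quality flags and mm9 coordinates. A second deposited file holds the ratio of each intensity to 1 factor per array, 2109 and 1734, and served as an alternative. The methods name a global normalization without its statistic.

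Each deposited intensity was divided by the 75th percentile over the 43020 non-control spots of its array and taken to log2 (Python 3.11.15, numpy 2.4.6, pandas 2.3.3). Outlier spots were dropped from both arrays (138 in the Pnpla1+/+ and 82 in the Pnpla1-/- scan, none of a member), repeated spots were averaged as log2 values, and the probe with the highest mean stood for its gene. Where a probe was above background on 1 array, its signal there was compared with the lowest detected signal of the other array, or with its own signal if that was higher, and the result is a bound. On the Pnpla1+/+ array 71.7% and on the Pnpla1-/- array 73.3% of spots were well above background, and none was saturated. Precision is limited by the number of arrays. The error of a difference came from the scanner's error model. Over 385 probes with at least 8 spots, the median SD of the spot-by-spot difference was 0.05.

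Samples were grouped by the genotype in their labels. The only comparison was between the genotypes, with no test. Members and lists were chosen with earlier results of these data known. Of 246 listed genes, 241 were found in the files, 5 of them under another name. Values in both pools are given for members at least 2-fold changed, for the lowest of each role group, and for the pathway genes with the largest differences, and Mb21d1, Mavs, Irf3 and Socs1 were named after their values were seen. Alternatives were other scalings, quantile normalization, cyclic loess and normexp with an offset of 50 (limma 3.58.1, R 4.3.3), centring on the E1A spike-in RNA (9 probes), the deposited table of ratios, other rules for probes and dim spots, and thresholds of 1.5-fold and 3-fold. The computation was tested on simulated data. Some items are not reported here.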

Additional observations from a re-analysis of the deposited data

How the results depend on the processing

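Of the 12 alternative settings, each left all 39 members with a difference and none at least 2-fold lower. The count of members at least 2-fold higher was 34 with spike-in centring, 35 with no scaling and 36 under each of the others, and it was 38 at a threshold of 1.5-fold and 27 at 3-fold. Irf9 passed 2-fold in 11 of 13 settings, the reported one included, and Bst2 in 12. All members but Isg20 were above 0 in every setting. The median over the members was 1.63 with no scaling and 1.49 with spike-in centring. Pnpla1 gave -2.35 with no scaling, -2.49 with spike-in centring and -1.51 with normexp background correction. No called value changed sign.

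Counts over all genes depended more on the setting. At least 2-fold higher were 1501 genes as reported, 999 with no scaling, 830 with spike-in centring, 960 with normexp, 3047 with no filter on dim probes, 3097 at 1.5-fold and 684 at 3-fold. At least 2-fold lower were 682 genes as reported, 1425 with no scaling, 2150 with spike-in centring, 321 with normexp, 1107 with no filter, 2095 at 1.5-fold and 229 at 3-fold. The share of higher genes among all those past 2-fold was 68.8% as reported, 41.2% with no scaling and 27.9% with spike-in centring, and the median over all genes moved to -0.28 and -0.43 there. The cause of these shifts was not tested. The median of the interferon ligands, 0.38 as reported, was -0.04 with spike-in centring. No paired analysis was possible because there is 1 array per genotype, and no replicate could be left out. Signal over background limits the interferon ligands, 4 of which were below background in both pools.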

Other observations

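Genes driven by NF-kappaB, the factor that answers to interleukin-1, tumour necrosis factor and Toll-like receptors, stood beside the interferon-stimulated genes. In the Pnpla1-/- pool 13 of the 15 that could be compared were at least 2-fold higher and none lower, with a median of 1.78. Over all genes, 6.7% were at least 2-fold higher. With no scaling or with spike-in centring, 9 of the 15 were at least 2-fold higher, where the count over all genes fell from 1501 to 999 and 830. Tnfaip2 read 18.1% of the 75th percentile in the Pnpla1+/+ and 359% in the Pnpla1-/- pool, a difference of 4.31 that is larger than that of any of the 39 members. Zc3h12a, a ribonuclease that degrades cytokine messages, differed by 3.91, the co-regulator Bcl3 by 3.05 and Birc3, an inhibitor of cell death, by 2.05, and Rel had a bound of 3.16. Several interferon-induced genes, Irf1, Cxcl10 and Cd274 among them, are also known NF-kappaB targets, and these data do not separate the pathways.

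For some genes of the lists, the brightest probe showed no difference while a dimmer one did, and these were noticed after their values were seen. Gbp5 read -0.11 by its brightest probe, at an intensity of 1115 in the Pnpla1+/+ pool, and 3.24 by the other, at 96.1. Slfn5 read -0.06 by its brightest probe and had a bound of 1.48 by the other. Cxcl11 was unlike these, since its 2 probes gave 0.04 and -0.09, at intensities of 185259 and 13518 in the Pnpla1+/+ pool, while those of its relative Cxcl9 read 3.68 and 2.88. The counts of the lists use the brightest probe and hold Gbp5, Slfn5 and Cxcl11 as under 2-fold.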
